A study of Mus musculus with 4 samples.

Results

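The cells described here are γδ-like T cells, gathered from tumours and from tumour-draining lymph nodes (TDLN) of female mice aged 4 to 8 weeks carrying CT26 colon carcinomas. Members were chosen by measured UMIs: a barcode was taken as γδ-like when it held a Cd3d, Cd3e or Cd3g UMI and a Trdc UMI, the constant gene of the δ receptor chain. It also had to hold no Cd4, Cd8a, Cd8b1, Ncr1 or Cd79a UMI and at most 2 UMIs of Rhox5, a gene of the carcinoma cells. Barcodes needed 200 genes or more and no more than 10% mitochondrial UMIs. Of the 41777 kept this way, 115 met the rule, 18 in tumours and 97 in TDLN. The study set mice treated with NanoCa, a lipid nanoparticle that carries calcium, against mock mice, and each of the 4 combinations was 1 library made with 10x Genomics 3′ chemistry. The groups were the NanoCa tumour (9 members), the mock tumour (9 members), the NanoCa TDLN (63 members) and the mock TDLN (34 members). Cells were dissociated, stained for CD45 and sorted, with neither the gate nor the number of mice stated in the labels. The labels give the mock libraries as untreated in one field while another field names NanoCa for all 4 libraries, and the group names here follow the treatment tag and the titles. With 1 library a group there is no replicate and no test: every interval below is a 95% interval that covers counting error only, and treatment cannot be told apart from the mouse, the sort or the library.

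γδ T cells carry a receptor of a γ and a δ chain in place of the αβ receptor. In mice they include cells committed early to interleukin-17 (type 17), which settle in skin, lung and other tissues and recirculate through skin-draining nodes, cells that make interferon-γ and cytotoxic proteins (type 1), and naive-like cells that circulate through lymph nodes. In mouse tumours the type 17 kind has been linked to neutrophil and vessel recruitment, and the type 1 kind to killing of tumour cells.

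Shown first are 4 variable segments whose counts differed between the gates of members defined further on. Trgv6 was seen in 7 of 28 type 17, 1 of 32 type 1 and 0 of 50 naive members, Trdv4 in 6, 0 and 0, Trgv4 in 6, 6 and 0, and Trdv5 in 13, 5 and 5. Each is the variable exon in GRCm38 (GENCODE vM21 transcripts, matched by gene ID; the labels do not name the authors' own build). The stretch shown is the end of that exon, and the capitals run from the codon of the conserved cysteine to the end of the segment, where it is joined to the next segment. The Trgv6 stretch lies at chr13:19190780-19190929 and Trgv4 at chr13:19185357-19185506, both on the plus strand of the γ locus. The Trdv4 stretch lies at chr14:54075366-54075515 on the plus strand and Trdv5 at chr14:54148662-54148811 on the minus strand of the δ locus. Trgv6 paired with Trdv4 is the receptor of the early, tissue-seeding type 17 cells, and Trgv4 paired with Trdv5 is carried by a second type 17 kind found in skin and its nodes.
Trgv6: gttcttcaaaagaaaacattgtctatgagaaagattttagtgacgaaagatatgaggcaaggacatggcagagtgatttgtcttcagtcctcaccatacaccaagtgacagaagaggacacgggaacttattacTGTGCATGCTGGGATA
Trdv4: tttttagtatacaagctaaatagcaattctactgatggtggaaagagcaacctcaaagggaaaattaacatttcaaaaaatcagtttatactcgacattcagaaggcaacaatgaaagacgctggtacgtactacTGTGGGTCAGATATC
Trgv4: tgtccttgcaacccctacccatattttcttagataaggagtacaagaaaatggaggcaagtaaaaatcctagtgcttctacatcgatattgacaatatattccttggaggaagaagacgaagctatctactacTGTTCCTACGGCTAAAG
Trdv5: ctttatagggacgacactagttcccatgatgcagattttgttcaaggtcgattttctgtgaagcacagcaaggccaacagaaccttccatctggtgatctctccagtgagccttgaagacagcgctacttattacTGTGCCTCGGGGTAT

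Libraries held 74909974 to 167924801 UMIs in 9404 to 11287 barcodes. In tumours the members' median was 3218 UMIs with NanoCa and 3439 with mock, against 12629 and 12246 over all kept barcodes, of which 5182 and 4196 were carcinoma-like with medians of 23459.5 and 26117 UMIs. The tumour pool of CD4- and CD8-negative T cells, members included, had medians of 1950.5 and 2234.5 UMIs and tumour CD4 T cells 2154.5 and 2346. Tumour CD8 T cells had medians of 2325.5 and 3393.5 UMIs. The members' medians thus lay above those of other tumour T cells, but with mock only slightly above that of CD8 T cells. In TDLN the members' median was 4453 UMIs with NanoCa and 5290.5 with mock, against 4238 and 4429 over all kept barcodes. Library pairs shared 120 to 179 kept barcode sequences, no barcode was a member in more than 1 library, and 2 members' barcodes were also kept in another library. Members among the barcodes that a doublet caller (Scrublet) would remove numbered 0 in tumours, 4 in the NanoCa TDLN and 3 in the mock TDLN.

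Before the results, 2 members stood apart. The deepest member of the mock TDLN held 58523 UMIs, 23.5% of all member UMIs of that library. It had 0 UMIs of Ptprc, which encodes CD45, with 2 of Cd3e, 1 of Trdc and 851 of Col1a1, the fibroblast collagen gene. The deepest member of the NanoCa tumour held 32067 UMIs, 55.6% of that library's member UMIs, with 1 UMI each of Ptprc, Cd3e and Trdc and 11 and 5 UMIs of the keratin genes Krt8 and Krt18. The comparison of genes between NanoCa and mock members is therefore given with and without the deepest barcode of each library, and other sums over members hold it unless said otherwise. Neither of the 2 members that stood apart fell into any of the gates used below. The deepest NanoCa TDLN member, left out in the same way, held 17147 UMIs, with 13 of Ptprc, 6 of Cd3e and 0 of Col1a1.

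The rule rested on few UMIs. Trdc was at 1 UMI in 69 members, just inside the rule, at 2 in 27 and at 3 or more in 19, with 16 as the highest. The Cd3 sum was 2 or lower in 7 members, and its median was 7 in both tumour libraries, 13 in the NanoCa TDLN and 13.5 in the mock TDLN. Just outside the rule lay 70 barcodes with Trdc and Cd3 that also held a CD4 or CD8 UMI, 65 with Ncr1, 9 with Cd79a, 28 with Trdc and no Cd3 UMI, and 3 with more than 2 Rhox5 UMIs. No barcode met the gene rule and failed only the cell filters.

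Trdc was also read in cells of other types. In B cells, which should lack it, 3 of 2369 NanoCa TDLN cells (0.127%, median 3771 UMIs) and 1 of 1947 mock TDLN cells (0.0514%, median 3800 UMIs) held a Trdc UMI. Among CD4- and CD8-negative T cells, the pool from which members come, the share was 2.71% with NanoCa (95% interval 2.09 to 3.46%, median 3806.5 UMIs) and 1.84% with mock (1.28 to 2.56%, median 3796 UMIs). Among T cells with a CD4 or CD8 UMI it was 1.09% with NanoCa (42 of 3836 cells, median 4653.5 UMIs) and 0.664% with mock (22 of 3315 cells, median 4683 UMIs). NK cells, many of which transcribe Trdc without a T cell receptor, held it in 21.7% of 60 NanoCa and 30.4% of 102 mock TDLN cells. In tumours 19.7% of 142 NanoCa and 25.5% of 184 mock NK cells held Trdc. Trdc was thus not limited to cells outside the CD4 and CD8 gates, and the share of members that are αβ T cells with a stray Trdc UMI was not tested.

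The label was checked against receptor genes that the rule did not use. Of the 115 members, 78 held at least 1 UMI of another γ or δ receptor gene: 30 held a γ constant gene, 44 a γ variable gene and 63 a δ variable gene. By library these were 5 of 9 NanoCa tumour members, 5 of 9 mock tumour members, 42 of 63 NanoCa TDLN members (66.7%, 95% interval 53.7 to 78.0%) and 26 of 34 mock TDLN members (76.5%, 58.8 to 89.3%). In TDLN CD8 T cells the same genes were seen in 7.65% of cells with NanoCa and 7.95% with mock, and in CD4 T cells in 7.54% and 6.97%. The members' shares lay above those of the other T cell classes in both TDLN libraries, with no overlap of the 95% intervals. Except where Trdc itself was counted, those classes were gated without a Trdc UMI. The gates thus bear on this gap, to an extent that was not tested. Over all 4 libraries, a γ constant gene was seen in 30 of 115 members. It was seen in 7 of 70 Trdc-positive T cells with a CD4 or CD8 UMI.

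The segments differed in how closely they marked members. Trdv2-2, a δ variable gene, was seen in 36.5% of NanoCa and 29.4% of mock TDLN members, but also in 33.3% of NanoCa and 28.4% of mock TDLN NK cells, so it did not set members apart from NK cells. Trdv5 was seen in 13 of 63 NanoCa and 10 of 34 mock TDLN members, against 0 of 60 and 0 of 102 NK cells, and in CD8 T cells in 0.162% with NanoCa and 0.119% with mock. Trgv2, a γ variable gene, was seen in the same numbers of members, 13 with NanoCa and 10 with mock, against 0.162% and 0.297% of CD8 T cells. A γ constant gene was seen in 23.8% of NanoCa and 26.5% of mock TDLN members, against 3.33% and 6.86% of NK cells and 0.377% and 0.356% of CD8 T cells. The γ constant genes and several variable genes are near copies of each other, so the split of reads among them is uncertain. The Trdv5 gene overlaps Trdc by 207 bases on the opposite strand, the printed Trdv5 stretch lies within that overlap, and whether counting used the strand is not stated. Among Trdc-positive cells, Trdv5 was seen in 24 of 115 members, 7 of 70 T cells with a CD4 or CD8 UMI and 1 of 119 NK cells, and the part of the overlap in these counts was not tested.

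**Figure D1:**
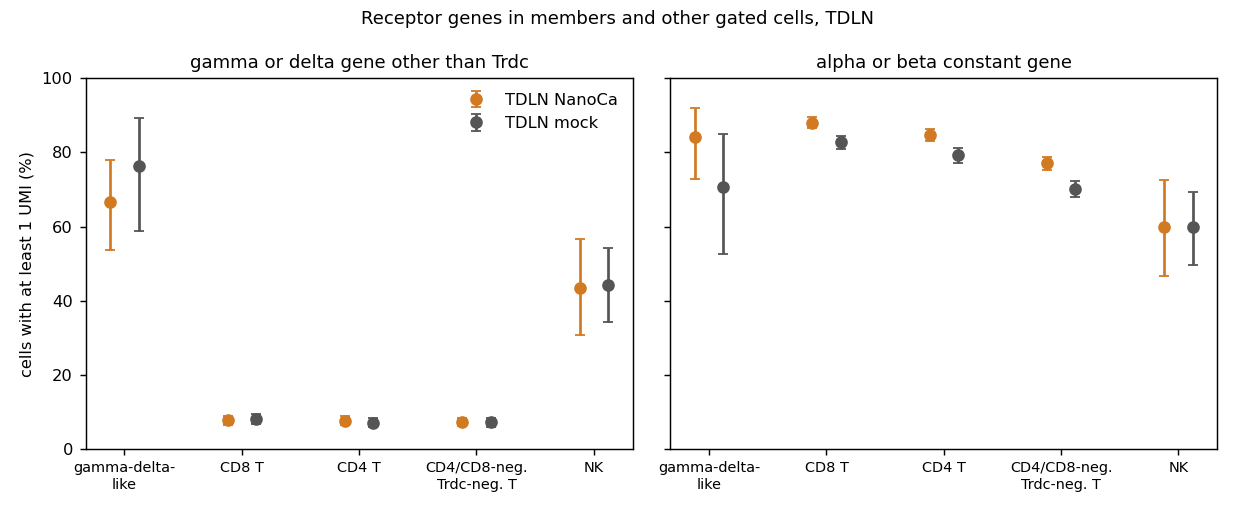
Share of TDLN cells (percent, with exact 95% intervals) holding receptor genes, NanoCa beside mock. Left, a γ or δ receptor gene other than Trdc, and right, an αβ constant gene. Shown are γδ-like members, CD8 T, CD4 T, CD4- and CD8-negative T, and NK cells, with the other T cells gated without Trdc. Members stand above the other T cells on the left (66.7% and 76.5%) and are not low on the right (84.1% and 70.6%).

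The αβ receptor constant genes Trac, Trbc1 and Trbc2 were frequent in members as well. At least 1 of them was seen in 4 of 9 NanoCa tumour members, 2 of 9 mock tumour members, 53 of 63 NanoCa TDLN members (84.1%) and 24 of 34 mock TDLN members (70.6%). Trac, which encodes the α constant chain, was lower in members than in αβ T cells: 100 CPM with NanoCa and 32.1 CPM with mock, against 169 and 152 CPM in CD8 T cells and 202 and 167 CPM in CD4 T cells. Trbc2, a β constant gene, was at 372 CPM in NanoCa and 88.3 CPM in mock members, against 262 and 158 CPM in CD8 T cells. Without the deepest barcodes Trac was at 103 and 41.9 CPM, and Trbc2 at 384 and 115 CPM, in NanoCa and mock members. An αβ constant gene with no γδ gene besides Trdc was the state of 23 members, 19 of them in the naive gate defined next. Another γδ gene with no αβ constant gene was the state of 18 members, 11 of them in the type 17 gate.

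Members were divided by UMI sums over fixed genes, which makes the gates descriptions of measured values. The type 17 gate took members with at least 2 UMIs over genes of interleukin-17-making γδ cells (among them Il17a, Il17f, Il23r, Cd163l1, 5830411N06Rik and Blk). The type 1 gate took others with at least 2 UMIs over 8 genes of interferon-γ and cytotoxic cells (Ifng, Tbx21, Eomes, Gzma, Gzmb, Prf1, Nkg7 and Klrd1), and the naive gate took the rest with at least 2 UMIs over genes of recirculating T cells (among them Ccr7, S1pr1 and Lef1). In tumours the gates held 6, 9 and 2 of 18 members in that order. In TDLN they held 22, 23 and 48 of 97. The naive gate was therefore 11.1% of tumour members (95% interval 1.38 to 34.7%) and 49.5% of TDLN members (39.2 to 59.8%), a log2 ratio of -2.15 (-5.24 to -0.22) with the libraries of each tissue pooled. Within treatments, each with 1 naive tumour member, it was -2.32 with NanoCa (-7.67 to 0.25) and -1.78 with mock (-7.19 to 0.95), both across 0. The type 1 gate was 50% of tumour members and 23.7% of TDLN members, with a log2 ratio of 1.08 (-0.22 to 2.24) that reached across 0, as did that of the type 17 gate (0.56, -1.04 to 1.90).

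The gates also differed in how far receptor genes backed the label. A γδ gene besides Trdc was seen in 27 of 28 type 17 members, 25 of 32 type 1 members and 24 of 50 naive members. In tumours alone it was seen in 5 of 6, 5 of 9 and 0 of 2 in that order, and in TDLN in 22 of 22, 20 of 23 and 24 of 48. A γ constant gene was seen in 14 of 28, 12 of 32 and 4 of 50 in the same order. An αβ constant gene was seen in 16 of 28, 24 of 32 and 40 of 50. Median depth was 5809.5, 4602.5 and 3996 UMIs, so the naive members, with the least receptor support, were also the shallowest of the gated members. In other T cells the type 17 gate took 3 of 1857 NanoCa and 1 of 1685 mock TDLN CD8 T cells, and 13 of 2261 NanoCa and 8 of 1816 mock TDLN T cells without CD4, CD8 or Trdc. The type 1 gate took 65.0% of NanoCa and 66.5% of mock TDLN CD8 T cells, and 4.42% and 4.90% of T cells without CD4, CD8 or Trdc. The naive gate took 93.9% and 90.2% of TDLN CD4 T cells and 33.7% and 32.5% of CD8 T cells. Of T cells without CD4, CD8 or Trdc it took 89.2% and 86.5%. The type 1 and naive gates were thus not particular to members.

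**Figure D2:**
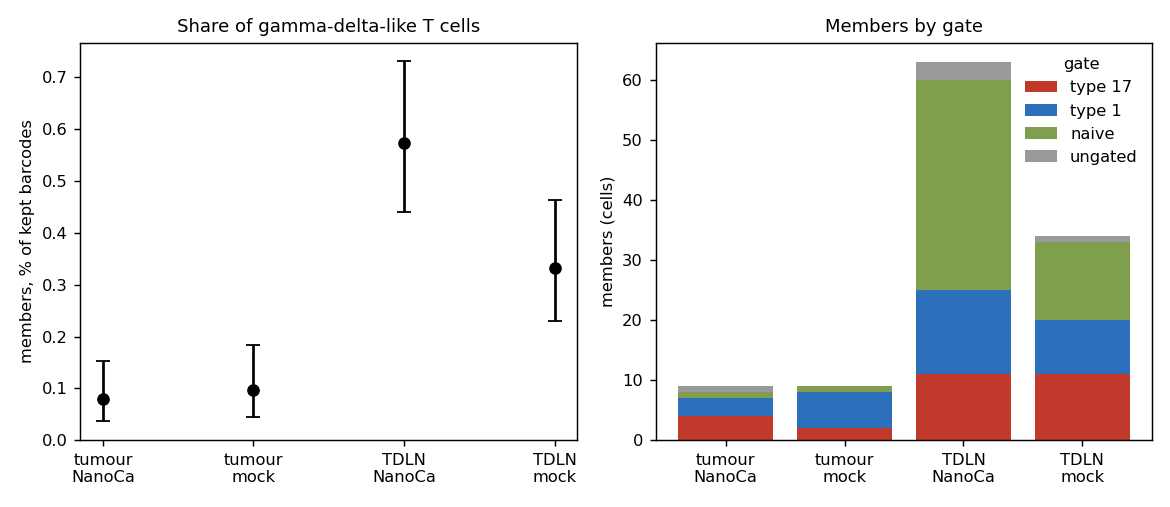
Left, γδ-like members as a percent of kept barcodes in each library, with exact 95% intervals; right, number of members in the type 17, type 1 and naive gates or in none. The TDLN bars (0.572% and 0.331%) stand above the tumour bars (0.0802% and 0.0970%), and the naive gate fills most of the NanoCa TDLN bar (35 of 63).

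Trdv4 and Trdv5, of the segments printed above, were not seen in the same cell. All 6 members with Trdv4 also held Trgv6, and all 6 were in the type 17 gate: 1 in the NanoCa tumour, 2 in the mock tumour, 3 in the NanoCa TDLN and 0 in the mock TDLN. The NanoCa tumour cell had 4 Trdv4 and 4 Trgv6 UMIs. The mock tumour cells had 7 and 2 Trdv4 UMIs with 2 Trgv6 UMIs each. The NanoCa TDLN cells had 71, 15 and 31 Trdv4 UMIs, with 11, 2 and 2 of Trgv6. None of the 6 held a Trdv5 UMI. Trdv4 alone did not mark γδ cells, being seen in 28 of 119 Trdc-positive NK cells, whereas Trgv6 was seen in 1 of those.

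The 2 scavenger receptor genes of γδ cells followed the same split. Cd163l1 encodes SCART1, known from Trgv6-bearing mouse cells, and 5830411N06Rik encodes SCART2, known from Trgv4-bearing ones. All 6 Trdv4 members held Cd163l1 (2 to 15 UMIs) and none held 5830411N06Rik. Over all members, 7 held Cd163l1 alone, of which 6 held Trgv6, 0 Trgv4 and 0 Trdv5. The 19 members with 5830411N06Rik alone held Trgv6 in 1, Trgv4 in 6, Trdv5 in 12, Trgv2 in 8 and Trdv2-2 in 7. Both genes were seen in 2 members and neither in 87. By library, Cd163l1 alone was seen in 1 NanoCa tumour, 2 mock tumour, 4 NanoCa TDLN and 0 mock TDLN members, and 5830411N06Rik alone in 2, 0, 7 and 10.

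Il17a transcripts were found in both kinds. Il17a, the type 17 cytokine, was seen in 2 of the 7 members with Cd163l1 alone and in 8 of the 19 with 5830411N06Rik alone. Il17f, its close relative, was seen in 7 of those 19, Il23r, the interleukin-23 receptor, in 9, Blk, a kinase that γδ17 cells share with B cells, in 17, and Cxcr6, a chemokine receptor of tissue T cells, in 16. Among the 7 with Cd163l1 alone, Il17f was seen in 0, Il23r in 3, Blk in 4 and Cxcr6 in 6. Pairs of a γ and a δ segment in 1 cell were most often Trgv2 with Trdv5 and Trgv2 with Trdv2-2 (11 members each). The type 17 gate held 4 and 7 of these in that order. Trgv4 with Trdv5 and Trgv6 with Trdv4 followed (6 members each), with 4 and 6 in the type 17 gate. Of the Trgv4 and Trdv5 cells, 5 came from the NanoCa TDLN and 1 from the mock TDLN.

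In TDLN, type 17 members differed from naive members in far more than the genes that gated them. Over both TDLN libraries and with rule and gate genes left out, genes past a ratio of 1.5 with an interval clear of 1 and at least 20 UMIs (called below) were 12.8% higher and 10.8% lower of 2710 genes. Such gates are cut from the same cells, so these calls describe the gates and test nothing. Of 17 further type 17 genes with enough UMIs, 15 were higher and 1, Sox4, was lower, with a median log2 ratio of 2.97 against -0.11 over all genes. All 15 stood higher in the NanoCa and in the mock library alike. Of 9 naive genes, 8 were lower and only Il7r, the interleukin-7 receptor, was higher (0.97).

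Of 11 tissue residence genes 7 were higher in type 17 members, all 7 in both libraries, and 1 was lower. Cxcr6 was seen in 9 of 11 NanoCa and 10 of 11 mock type 17 members, against 0 of 35 and 0 of 13 naive members, at 643 and 426 CPM. Lgals3, which encodes galectin-3, was at 1227 CPM in NanoCa and 1922 CPM in mock type 17 members, against 49.8 and 94.9 CPM in naive members, a pooled log2 ratio of 4.65 (3.87 to 5.55). S100a6, a calcium-binding protein gene, was at 6236 and 4300 CPM in type 17 members, against 287 and 680 CPM in naive ones. All 3 stood higher in the type 17 members of both libraries. Itgae, which encodes the CD103 integrin that holds T cells in epithelia, was higher by a log2 ratio of 4.88, Cd44, the memory marker, by 2.54, and Tnf, the inflammatory cytokine, by 4.26. Ccr6, a chemokine receptor of type 17 cells, was at 73.0 CPM in NanoCa and 338 CPM in mock type 17 members, with 0 UMIs in naive members of both libraries. Serpinb1a, a protease inhibitor gene, was at 803 and 352 CPM there and at 0 in naive members, with 46.8% of its UMIs in 1 cell.

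Other groups moved with these. Of 19 cytokine receptor genes 12 were higher and 3 lower, and of 7 cytokine genes 5 were higher (Areg, Ltb, Tgfb1, Tnf and Tnfsf11) and Ccl5 was lower. Areg had 51.1% of its UMIs in 1 cell. Of 17 immediate-early genes 8 were higher, Fos by a log2 ratio of 1.93 and Fosb by 2.14, and 1 was lower. Jun, among the 8, was not higher in both libraries. Of 21 calcium and NFAT genes 5 were higher, the calcium pump gene Atp2b1 and 4 S100 genes, and none was lower. Among the genes lower in type 17 members, Gimap6, a GTPase gene of lymphocyte survival, was at 43.8 CPM in NanoCa and 14.7 CPM in mock type 17 members, against 897 and 680 CPM in naive ones. Klf2, the factor that keeps T cells recirculating, was at 862 and 1013 CPM, against 2885 and 1391 CPM. Lck, the kinase of T cell receptor signalling, was seen in 0 and 1 type 17 members, against 28 of 35 and 9 of 13 naive members, and Themis, a signalling protein of thymocytes, in none, against 16 and 8.

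Between type 1 and naive members, 6.56% of 2683 genes were higher and 4.21% lower in the type 1 gate. All 6 further type 1 genes with enough UMIs were higher, with a median log2 ratio of 2.79 against -0.0016 over all genes, and 5 of the 6 were higher in both libraries. Ccl5, a chemokine of cytotoxic cells, was at 2475 CPM in NanoCa and 6298 CPM in mock type 1 members, against 31.2 and 775 CPM in naive members. Ly6c2, a memory marker, was seen in 3 of 14 NanoCa and 6 of 9 mock type 1 members and in no naive member. Xcl1, the exception, had 67.7% of its UMIs in 1 cell. Il2rb, a receptor chain for interleukin-2 and interleukin-15, was higher by a log2 ratio of 2.27, and Ctsw, a protease gene of killer cells, by 2.79. Of 14 interferon-stimulated genes 5 were higher, among them Isg15 (2.85) and Bst2 (1.18), and 1 was lower.

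Set against type 1 members, type 17 members had 12.0% of 1957 genes higher and 10.6% lower. The type 17 list again stood higher, with 14 of 17 genes higher and 2 lower (Ahr and Sox4). Of 17 immediate-early genes 10 were higher and 1 was lower. Crip1, a LIM-domain protein gene, was higher by a log2 ratio of 4.06 and Capg, an actin-capping protein gene, by 4.12. Itgae had 36 UMIs in type 17 members and 0 in type 1 members. Ccl5 was lower by 7.22 on the log2 scale in type 17 members.

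The same genes were then looked at in the tumour, where 9 members a library were too few for comparisons over all genes, so shares of cells are given. Cxcr6 was seen in 6 of 6 tumour and 19 of 22 TDLN type 17 members, and in 1 of 9 and 5 of 23 type 1 members. Il7r was seen in 6 of 6 tumour and 22 of 22 TDLN type 17 members, and in 1 of 9 tumour and 17 of 23 TDLN type 1 members. Tmem176b, a membrane protein gene of type 17 cells, was seen in 5 of 6 and 21 of 22 type 17 members, and Tnf in 5 of 6 and 13 of 22. Other type 17 genes differed in share between the tissues: Itgae was seen in 0 of 6 tumour and 16 of 22 TDLN type 17 members, Actn2, an actinin gene, in 2 of 6 and 21 of 22, and Ccr2, a chemokine receptor, in 2 of 6 and 18 of 22. Median depth of type 17 members was 2425.5 UMIs in the NanoCa tumour and 2606.5 in the mock tumour, against 6209 and 6285 in TDLN, so shares at 1 UMI are not on the same footing in the 2 tissues.

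Tumour type 1 members carried the effector genes, though only 5 of these 9 held a γδ receptor gene besides Trdc, against 20 of 23 in TDLN. Ccl5 was seen in 8 of 9 tumour and 14 of 23 TDLN type 1 members, Ly6c2 in 7 of 9 and 9 of 23, Xcl1, a chemokine that draws dendritic cells, in 6 of 9 and 4 of 23, and Gzmb, which encodes granzyme B, in 6 of 9 and 3 of 23. Gzmb is one of the genes that set the gate. Median depth of type 1 members was 4401 UMIs in the NanoCa tumour and 3890 in the mock tumour, against 4552.5 and 5443 in TDLN, and the differences between tissues were not tested. S1pr1, the receptor that lets T cells leave tissue, was seen in 0 of 9 tumour and 13 of 23 TDLN type 1 members, and in 0 of 6 tumour and 10 of 22 TDLN type 17 members. Cd27, a costimulatory receptor of the type 1 and naive kinds, was seen in 3 of 9 tumour and 20 of 23 TDLN type 1 members.

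**Figure D3:**
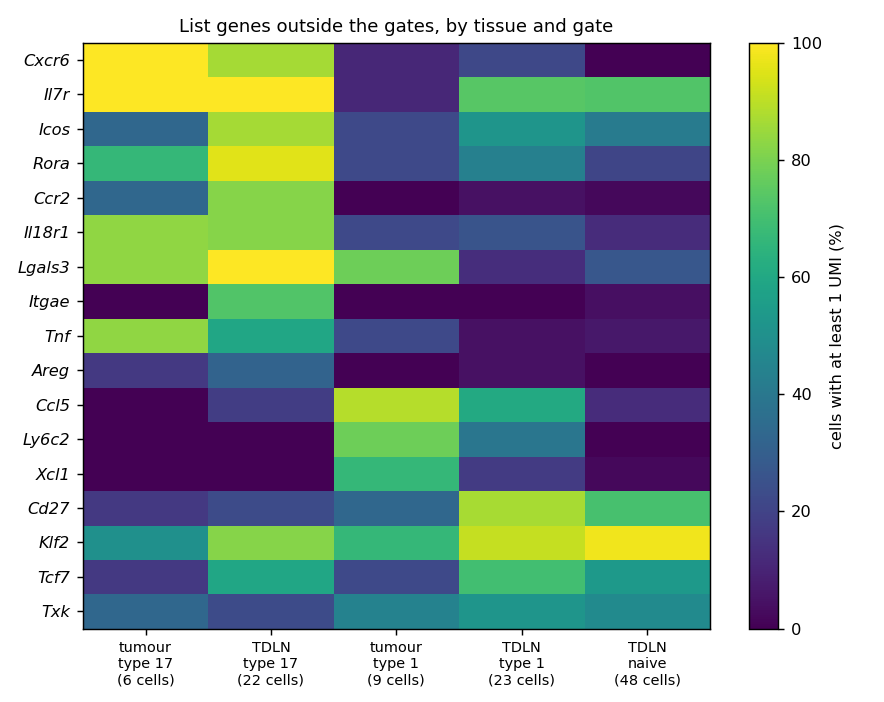
Share of members (percent) with at least 1 UMI of 17 genes in the type 17 gate (tumour, 6 members; TDLN, 22), the type 1 gate (tumour, 9; TDLN, 23) and the TDLN naive gate (48). Cxcr6 fills both type 17 columns (6 of 6 and 19 of 22) and Ccl5 the tumour type 1 column (8 of 9).

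The first question of treatment was the number of γδ-like cells. In TDLN, members were 0.572% of kept barcodes with NanoCa (95% interval 0.440 to 0.731%) and 0.331% with mock (0.229 to 0.462%), a log2 ratio of 0.79 (0.16 to 1.44). As a share of Cd3-positive cells they were 0.970% with NanoCa and 0.630% with mock, and the log2 ratio was 0.62 with an interval that reached across 0 (-0.0015 to 1.27). The same held for Ptprc-positive cells (0.58, -0.049 to 1.22). Each cell was then thinned to 1000 UMIs, with shallower cells left out (10613 NanoCa and 9690 mock cells remained). The rule, applied anew, found 35 members with NanoCa and 15 with mock, a log2 ratio of 1.09 (0.18 to 2.07). Thinning also removes the CD4, CD8, Ncr1 and Cd79a UMIs that exclude a cell. The TDLN pool of CD4- and CD8-negative T cells went from 2324 to 4257 with NanoCa and from 1850 to 3519 with mock. The part of newly passing cells in this ratio was not tested. Counting only members without an αβ constant UMI left 10 in each library and turned the ratio to -0.10 (-1.52 to 1.32). The interval also reached across 0 with at least 2 Trdc UMIs required (0.40, -0.56 to 1.38) or another γδ gene required (0.59, -0.15 to 1.36). Without the 2 barcodes that stood apart the ratio was 0.83 (0.20 to 1.49). Trdc was also seen more often in TDLN CD4 T cells with NanoCa, in 1.07% of 1958 cells against 0.433% of 1615 with mock (log2 ratio 1.31, 0.019 to 2.78), and its part in the members' difference was not tested.

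In tumours the shares were 0.0802% with NanoCa (0.0367 to 0.152%) and 0.0970% with mock (0.0444 to 0.184%), a log2 ratio of -0.27 (-1.78 to 1.23). Without the barcode that stood apart it was -0.44 (-2.02 to 1.10). As a share of Cd3-positive cells it was 1.07% of 840 with NanoCa and 0.856% of 1051 with mock (0.32, -1.18 to 1.83), so the sign turned with the denominator and no difference was detectable at 9 members each. Over both treatments, members were 0.952% of Cd3-positive tumour cells (0.565 to 1.5%) and 0.815% of Cd3-positive TDLN cells (0.662 to 0.994%), with overlapping intervals.

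Within TDLN, the naive gate held the larger part of the added members with NanoCa as the rule stands. As a share of kept barcodes, naive members had a log2 ratio of 1.33 (0.37 to 2.37; 35 NanoCa and 13 mock members), while type 17 members (-0.10, -1.45 to 1.25; 11 each) and type 1 members (0.54, -0.77 to 1.93; 14 and 9) had intervals across 0. As shares of members the gates were 17.5% type 17, 22.2% type 1 and 55.6% naive with NanoCa, and 32.4%, 26.5% and 38.2% with mock. As gated, none of these 3 differences in the make-up of members was clear of counting error: the log2 ratio was 0.54 for the naive gate (-0.42 to 1.58) and -0.89 for the type 17 gate (-2.24 to 0.46). With the same members thinned to 1000 UMIs before gating, the naive ratio was 0.95 (0.0026 to 2.01). With a γ constant UMI required, both signs turned, to -0.74 for the naive gate (2 members each) and 0.85 for the type 17 gate (9 NanoCa and 3 mock members). In tumours the type 17 gate held 4 of 9 NanoCa and 2 of 9 mock members, and the type 1 gate 3 of 9 and 6 of 9.

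Gene by gene, TDLN members were then compared between NanoCa and mock as UMIs summed over members. Of 4076 genes with at least 20 UMIs, 8.07% were called higher and 11.5% lower with NanoCa. The 10 genes that led the lower side (Cxcl14, Tagln, Acta2, Sparc, Col1a1, Col3a1, Ccl2, Igfbp7, Bgn and Col1a2) had 98.8 to 100% of their UMIs in 1 mock barcode, the collagen-rich one described above. The fibroblast list was at 16.7 CPM in NanoCa and 5772 CPM in mock members with that barcode in. Without the deepest barcode of each library, 4.45% of 3547 genes were higher and 5.75% lower. Of the genes called higher with all members, 41.9% were still called, and of those called lower, 31.6%. Scaling also moved the balance: 41.2% of all calls were on the higher side as reported, 31.6% with TMM scaling and 29.6% with median-of-ratios scaling, and the median log2 ratio of all genes was 0.11, 0.021 and 0 in that order. In the next paragraphs on NanoCa against mock members, values leave the deepest barcodes out unless they are said to cover all members.

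Genes of resting, recirculating T cells stood on the NanoCa side, as did the naive gate itself. Of 14 naive genes 6 were higher and none lower (median log2 ratio 0.38, against 0.023 over all genes). With all members 8 were higher and 1 was lower. The αβ receptor constant genes moved with this list: Trbc2 had 108 UMIs with NanoCa and 22 with mock (log2 ratio 1.73, 1.06 to 2.47), Trac had 29 and 8 (1.30, 0.13 to 2.64), and Trbc1, at 0.31, was not called. An αβ constant UMI was held by 31 of 35 NanoCa and 9 of 13 mock naive members, and the part of αβ T cells in these calls was not tested. Klf2 had 678 UMIs with NanoCa and 217 with mock, a log2 ratio of 1.08 (0.86 to 1.31). The log2 ratio of S1pr1 was 1.32, that of Lef1, a factor of naive T cells, 0.84, and that of Bach2, a repressor of effector genes, 0.76. Ccr7, a lymph node homing receptor, was at 0.40 and was not called. In TDLN CD8 T cells 0 of 16 genes of that list were called, and in CD4 T cells 1 of 16 was higher. Txnip, a brake on glucose uptake, led all genes seen in more than a few cells, with 109 UMIs in 43 NanoCa members and 14 UMIs in 12 mock members (2.40, 1.59 to 3.32). With all members Txnip was at 2.74, against 0.69 in CD8 T cells and 0.82 in CD4 T cells.

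Type 17 genes were split. Of 24, 3 were higher and 8 lower with NanoCa, with a median of -0.41. With all members in, type 17 cells were 11 of 63 with NanoCa and 11 of 34 with mock, and sums over members carry this make-up. Within the type 17 gate alone, 5 of 20 such genes were higher and 4 lower (median 0.062). There 4.91% of all genes were higher and 5.92% lower. Il17a had 32 UMIs in 5 NanoCa members and 89 UMIs in 5 mock members, of which 55 lay in 1 cell (log2 ratio -2.04, -2.67 to -1.44). Il17f had 8 and 57 UMIs (-3.39), and Ccr6 (-2.50), Blk (-1.50) and 5830411N06Rik (-1.02) were also lower. Cd163l1, the SCART1 gene, went the other way with 44 UMIs in 5 NanoCa members and 5 UMIs in 1 mock member (2.58), as did Il23r with 35 and 7 UMIs (1.76). Trdv4 had 117 UMIs in 3 NanoCa members and 0 in mock members, with 60.7% in 1 cell. These values rest on 11 type 17 members a library, so a single cell could carry a gene.

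**Figure D4:**
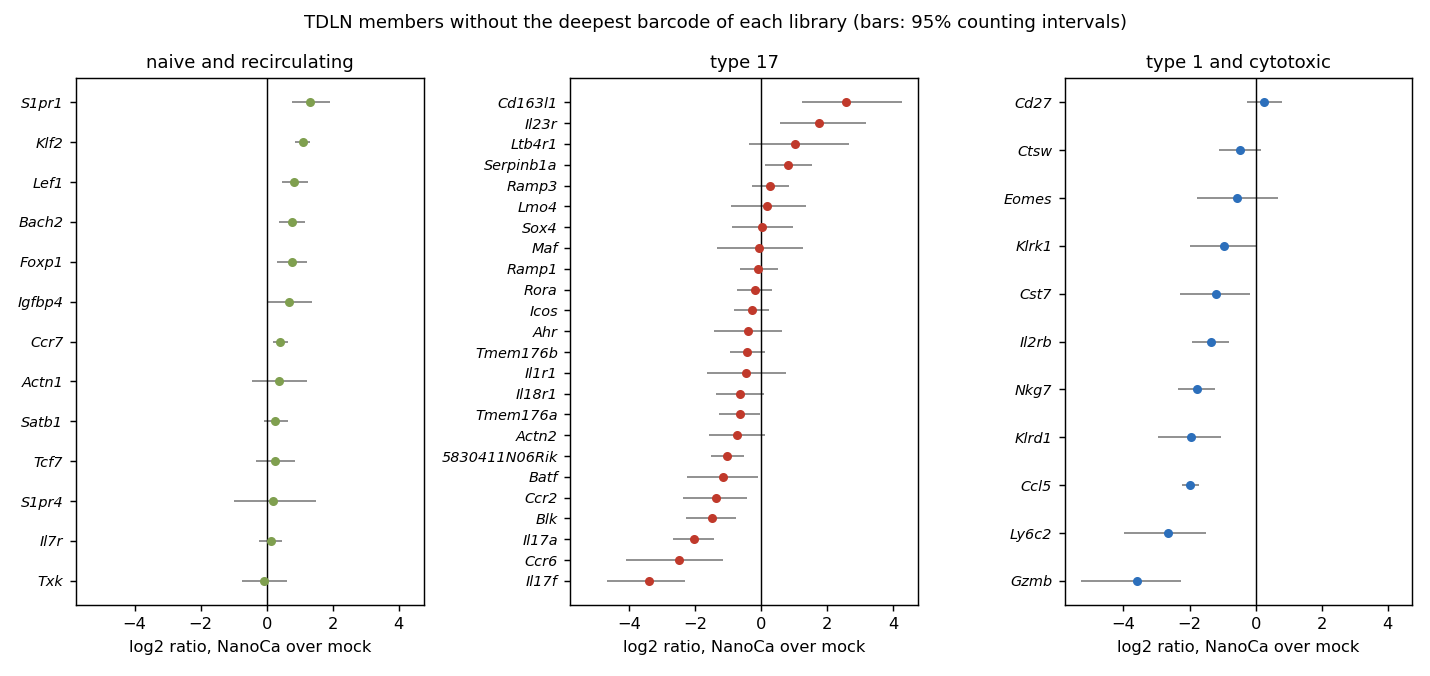
Log2 ratio of NanoCa over mock (with 95% counting intervals) for genes of the naive, type 17 and type 1 lists in TDLN members, without the deepest barcode of each library; genes at 0 in 1 of the libraries are among those not drawn. Naive genes such as S1pr1 (1.32) and Klf2 (1.08) lie to the right of 0, and Ccl5 (-1.97) and Nkg7 (-1.77) to the left.

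Type 1 genes stood on the mock side. Of 12, 8 were lower with NanoCa and none was higher, with a median of -1.35, or -1.56 with the gene at 0 set to a floor of 3 UMIs. Other T cells of the same nodes also had more of these genes lower than higher. In the CD8 gate 8 of 27 were lower and 0 higher (median -0.33), and in the CD4 gate 11 of 25 and 1 (-0.54). In T cells without CD4, CD8 or Trdc they were 5 of 26 and 2 (-0.15). Over all genes 9.67%, 10.1% and 13.7% were lower in those populations, in that order, and 5.75% in members. Ccl5 had 160 UMIs in 13 NanoCa members and 425 UMIs in 13 mock members (-1.97), so the same number of cells held fewer UMIs. Nkg7, a granule protein gene (-1.77), Klrd1, an NK receptor gene (-1.96), and Il2rb (-1.35) were lower as well. Gzmb was lower (-3.60) with 80.4% of its UMIs in 1 cell, and Xcl1 had 0 UMIs with NanoCa and 31 with mock, 67.7% of them in 1 cell. Of 4 NK receptor genes 3 were lower, beside 4 of 10 (1 higher) in the CD8 gate and 4 of 7 (0 higher) in the CD4 gate. Tyrobp, an adaptor gene of NK and myeloid cells, had 0 UMIs with NanoCa and 31 UMIs in 4 members with mock, and Fcer1g, another such gene, had 1 UMI with NanoCa and 21 with mock (-4.95, -10.3 to -2.32). The NK marker list was at 224 CPM in NanoCa and 335 CPM in mock members, with 7 and 4 of its 10 genes at 0, against 6726 and 8313 CPM in NK cells. The monocyte and macrophage list was at 217 CPM in NanoCa and 398 CPM in mock members, with 5 and 3 of its 9 genes at 0. The part of such cells or their RNA in these calls was not tested.

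Interferon-stimulated genes, the targets of the cytokine named in the study's title, were read beside those of other T cells of the same nodes. Of 18 such genes in members, only Bst2, a surface protein that tethers viruses, was higher (0.67), none was lower, and the median was 0.081. In naive members alone, with no barcode left out, 2 of 8 were higher and 1 lower (median 0.40). In type 17 members 0 of 7 were higher and 1 lower (-0.56). Over all genes, 4.87% were higher and 4.99% lower in naive members, and 4.91% and 5.92% in type 17 members. In the CD8 gate 24 of 48 such genes stood higher and 0 lower (median 0.59); over all genes of those cells 2.53% were higher and 9.67% lower. In the CD4 gate 13 of 47 stood higher and 2 lower (median 0.41), where 2.15% and 10.1% of all genes were. Members held far fewer UMIs than those populations, so fewer genes could be called, and the difference between populations was not tested. Of 17 immediate-early genes 1 was higher and 3 lower, of 23 calcium and NFAT genes 0 were higher and 1 lower, and of 10 cytokine genes 0 were higher and 5 lower. Of 24 cytokine receptor genes 4 were higher and 5 lower. Of 12 tissue residence genes 0 were higher and 4 lower, of 13 inhibitory and activation genes 0 and 1, and of 8 cell cycle genes 0 and 1 (Stmn1). Some of these counts changed with the deepest barcodes. With all members in, 3 inhibitory and activation genes were higher and 1 lower (median 0.46, against -0.15 without those barcodes). Immediate-early genes then had 2 higher and 7 lower.

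Lastly, members were set against other lymphocytes of their own TDLN library, here with all members in and with no gene of the rule named. The mock values hold the collagen-rich barcode: 3 of 3 fibroblast genes were higher than in CD8 T cells with mock (median log2 ratio 6.61) and 0 of 3 with NanoCa. Against CD8 T cells 5.29% of genes were higher and 1.76% lower with NanoCa, and 10.6% and 3.59% with mock. Without the deepest barcodes these were 5.29% and 1.71% with NanoCa, and 6.05% and 1.51% with mock. In both libraries 210 genes were higher, 36.6% of the NanoCa calls and 17.9% of the mock calls, and 50 were lower; without the deepest barcodes 195 and 31 were. Those higher were led by type 17 genes and receptor segments: Il17a (32 and 89 UMIs, with 0 in CD8 T cells of both libraries), 5830411N06Rik (log2 ratio 9.47, 7.85 to 11.8, with NanoCa and 10.7, 8.76 to 13.7, with mock), Trdv5 (8.93, 7.28 to 11.3, and 8.44, 6.96 to 10.4) and Blk (7.18, 5.86 to 8.75, and 8.27, 7.04 to 9.78). Tmem176b (3.82 and 3.48), Ccr2 (3.87 and 4.46) and Lgals3 (3.03 and 2.86) followed. Lower in both were Dapl1, a gene of naive CD8 T cells (-2.88 and -2.01), Tigit, an inhibitory receptor gene (-3.11 and -1.69), and Ly6c2 (-3.74 and -0.99). Without the deepest barcode the mock interval of Tigit reached across 0 (-1.31, -3.19 to 0.060).

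Against CD4 T cells 3.73% of genes were higher and 2.41% lower with NanoCa, and 9.38% and 5.13% with mock, where leaving out the deepest barcode gave 5.19% and 2.48%. Klrk1, which encodes the NKG2D receptor, was higher (5.86 and 4.79), as was Cxcr6 (3.97 and 3.14). Cd5 (-1.0 and -1.27), Cd6 (-1.31 and -1.54) and Cd28 (-0.99 and -1.0), surface regulators of T cell receptor signalling, were lower, as was Trac (-1.01 and -2.38). Against NK cells 8.17% of genes were higher and 13.7% lower with NanoCa, and 8.42% and 12.1% with mock, or 6.78% and 10.3% without the deepest barcode. Gzma, which encodes granzyme A, led the lower side, at 13.4 CPM in NanoCa and 52.1 CPM in mock members against 4765 and 6542 CPM in NK cells.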

How the data were processed

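The values are UMI counts per gene and barcode in 4 matrices that the authors deposited; per the file headers they were made with Cell Ranger 7.1.0, and neither the genome build nor the strand setting is named there or in the labels. Kept barcodes had 200 genes or more and no more than 10% mitochondrial UMIs. The members and gene lists were chosen with earlier results of these data known, and the gates rest on the same UMIs as the values described. Counts were summed over members per library and scaled to CPM. Shares carry exact Clopper-Pearson intervals, CPM exact Poisson intervals and ratios conditional binomial intervals, all 95%; a gene was called with at least 20 UMIs over the pair, a ratio of 1.5 and an interval clear of 1. Named genes were the 10 highest and 10 lowest calls by the interval bound nearest to 1 with at least 50 CPM in 1 group, besides list and gate genes; the rule was repeated without the deepest barcodes after seeing the data. Mitochondrial, ribosomal protein, hemoglobin and immunoglobulin genes were not named. Doublets were left in; Scrublet removal (scanpy 1.11.5), TMM (edgeR 4.0.16, R 4.3.3) and median-of-ratios scaling, other limits of the rule and thinning to 1000 UMIs were alternatives. The calls were tested on simulated summed counts with counting error only. Those counts lack cell-to-cell spread, library differences and genes held by 1 barcode, so the test does not cover these. Python 3.11.15, numpy 2.4.6, scipy 1.17.1, pandas 2.3.3 and matplotlib 3.10.9 were used. Some genes of the gates and lists are counted in their sums but are not reported here.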

Additional observations from a re-analysis of the deposited data

Results flagged for a closer look

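The change with NanoCa in the share of γδ-like members among kept barcodes went opposite ways in the 2 tissues: the log2 ratio was -0.27 in tumours (9 NanoCa and 9 mock members) and 0.79 in TDLN (63 and 34), a difference of -1.06. The share of the type 17 gate among members went the other way round, with a log2 ratio of 1.0 in tumours (4 of 9 NanoCa and 2 of 9 mock members) and -0.89 in TDLN (11 of 63 and 11 of 34), a difference of 1.89. With 1 library a group, neither difference between tissues was tested.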

How the results depend on the processing

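No paired analysis was possible because each group holds 1 library. An alternative ratio was counted as unchanged when it lay inside the reported interval, and a gene count when it was within 1.5-fold. Where intervals were wide, such values need not be close to those reported. All 12 alternatives of the type 17 gate, tumour over TDLN, were counted as unchanged while running from -0.66 to 1.32. Of 119 alternative values, 104 were counted as unchanged, 14 moved and 1 turned a value whose interval had been clear of 0. That was the TDLN share of members (NanoCa over mock, log2), at -0.10 when members with an αβ constant UMI were left out (10 NanoCa and 10 mock members); the cause was not tested, and the other alternatives gave up to 1.09. Signs also changed 10 times among ratios whose intervals reached across 0 as reported. With a γ constant UMI required, the TDLN ratio was 0.85 for the type 17 gate (-0.89 as reported) and -0.74 for the naive gate (0.54), and the type 17 gate, tumour over TDLN, was at -0.58 (0.56); that last ratio was also at -0.66 with 2 Trdc UMIs and -0.26 without αβ constant UMIs. The TDLN type 1 gate (-0.25) was at 0.36 with members chosen anew after thinning and 0.043 at a gate minimum of 1 UMI. With the same members thinned it was at -2.11 (-4.70 to 0.019, 3 NanoCa and 7 mock members), so its sign after thinning hung on how members were chosen. The tumour share (-0.27) was at 0.32 of Cd3-positive cells, 0.0056 of Ptprc-positive cells and 0.016 with no Rhox5 limit. The type 1 gate, tumour over TDLN, was at 2.32 without αβ constant UMIs and 2.64 with members chosen anew after thinning. TDLN genes higher and lower with NanoCa numbered 329 and 469 as reported, 134 and 205 with a Cd3 sum of at least 3, 108 and 142 with another γδ gene, 197 and 252 at 50 UMIs, and 158 and 204 without the deepest barcodes; a fold of 2 gave 196 higher. Genes lower than in CD8 T cells in both TDLN libraries numbered 31 without the deepest barcodes and 50 with them. The Cd3, γδ gene and deepest-barcode alternatives were tested on fewer genes. Not run were TDLN gene calls with under 20 members a library (Trdc of at least 2 UMIs, a γ constant gene, no αβ constant gene, thinning), gate ratios with a count of 0, and all comparisons over genes with tumour members. With 9 members a tumour library, the interval of the tumour share ratio ran from -1.78 to 1.23.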
